A study of Danio rerio with 82 samples.

Results

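The genes described here encode the acid-activated proteases of the lysosome, the proton pump that acidifies it, and the glycoproteins that line its membrane. They were chosen by name: every locus whose gene symbol starts, in any letter case, with cts (cathepsins), atp6v (subunits of the vacuolar proton pump, V-ATPase), atp6ap (accessory proteins of that pump) or lamp (lysosome-associated membrane proteins). The rule found 48 gene symbols at 50 of 28405 loci, since ctslb was listed at 3 loci. They comprise 19 cathepsins (16 cysteine proteases, 2 serine proteases and 1 aspartic protease), 21 V-ATPase subunits (8 of the membrane sector V0 and 13 of the cytoplasmic sector V1), 5 accessory proteins and 3 LAMP glycoproteins.

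The series holds 82 samples of zebrafish germ cells, embryos and muscle, and 4 of them carry these measurements: poly(A)-selected, strand-marked RNA sequencing libraries of oocytes of the Tu wild-type strain at stages I, II, III and IV, with 1 library per stage. Oocytes were picked by morphology from the ovaries of adult females and follicle cells were detached as far as possible, per the labels' protocols. The labels also place stages I to IV at G1 phase, S phase, prophase I and metaphase I, which was not checked here. No transgene, treatment or mutation is named for any of them. The authors deposited FPKM, a level that corrects the fragments of a gene for transcript length and for library size, each with a lower and an upper bound that is given in brackets here and covers the authors' estimate for that library only. Poly(A) selection measures tailed transcripts, so a shorter tail and a lower RNA level cannot be told apart.

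Lysosomal proteases are made as inactive precursors and become active at acid pH. V-ATPase supplies that acidity: its V1 sector hydrolyses ATP and turns a rotor, and its V0 sector carries protons through the membrane. In egg-laying vertebrates the growing oocyte takes up vitellogenin from the blood and cathepsins cleave it into yolk proteins, and in gilthead seabream and killifish a further round of yolk proteolysis, with acidification by V-ATPase, accompanies oocyte maturation.

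With 1 library per stage no spread between samples could be estimated, so no difference below has a test, and each one compares libraries, not conditions. Differences are of log2(FPKM + 1), which understates the change of low genes, and a gene is called higher or lower where the difference is at least 1 or at most -1. This was read for the 36 of 48 genes that averaged 1 FPKM or more across the stages, beside the same share among all 14109 loci that did so. Stage IV stood apart from the other stages: 11100 loci reached 1 FPKM there, against 13854 to 14536 in stages I to III, and the median difference over all loci was -0.75 for stage IV against stage I and -0.82 for stage IV against stage III. Scaling the libraries by the median of ratios moved stage IV up by 0.87 against stage I and by 0.92 against stage III, and stage III up by 0.12 against stage II, so directions that involve stage IV can turn with it. The summed FPKM of the 7 matched oocyte markers was 4836, 3091, 2718 and 247 in stages I to IV, with buc giving 118 of the 247 in stage IV and figla listed at 0 in all 4. Markers of follicle cells summed to 388, 306, 573 and 207.5 FPKM over 11 genes, of leukocytes to 151, 101, 196 and 38.5 FPKM over 12, of stroma and muscle to 266, 80.3, 269 and 2.98 FPKM over 7, of erythrocytes and thrombocytes to 21.5, 7.09, 20.1 and 2.26 FPKM over 3, and of endothelium to 6.41, 5.15, 8.72 and 1.25 FPKM over 2. Of the follicle cell sum in stage IV, cyp11a1 gave 170 and cyp17a1 33.8 FPKM. The other follicle cell genes were at or below 1.63 FPKM there, with fshr, lhcgr and star at 0. In these libraries fewer cells of a type and less RNA per cell cannot be told apart.

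In stage IV the summed level of the proteases was at its highest and, before scaling, that of the pump at its lowest. The 19 cathepsins together had 4528, 3608, 5449 and 7814 FPKM in stages I to IV, which was 0.586, 0.509, 0.676 and 1.15% of all FPKM. The 21 pump subunits together had 859, 1002, 1445 and 484 FPKM. A few genes carried these sums: ctsba, ctsla and ctssb.1 had 2810, 1851 and 2163 FPKM in stage IV. atp6v0ca gave 31.8% of the pump sum in stage I and 5.75% in stage IV. By gene, the median difference for stage IV against stage I was -0.74 over 17 pump subunits averaging 1 FPKM or more, beside -0.75 for all loci. Over 13 such cathepsins it was 0.83, with 8 above 0 and 5 below. For stage IV against stage I the log2 ratio of the sums was 0.79 for cathepsins (1.65 with the scaling), -1.26 for V0 (-0.40 with the scaling) and -0.45 for V1, where the scaling turned it to 0.42. The ratio of the cathepsin sum to the pump sum was therefore 16.1 in stage IV, against 5.27 in stage I, 3.6 in stage II and 3.77 in stage III, and this ratio within a library does not depend on how libraries are scaled.

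**Figure D1:**
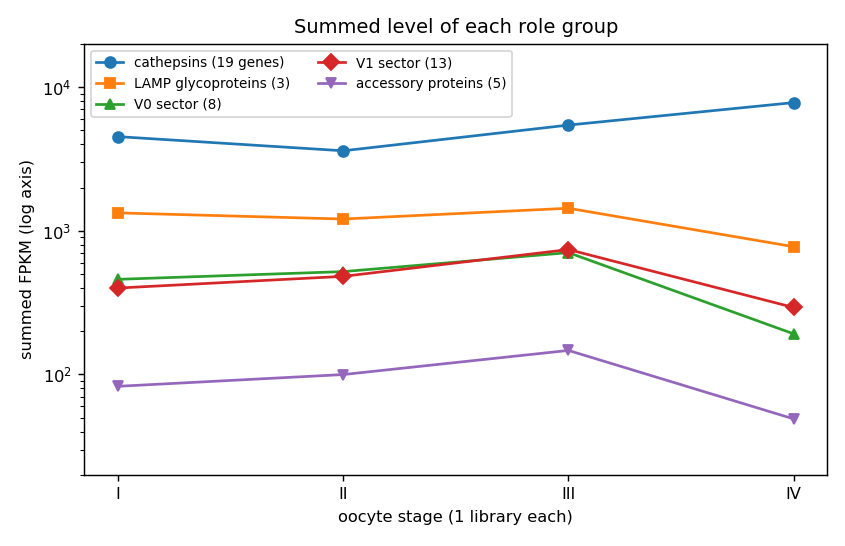
Summed FPKM (log axis) of each role group in the library of each oocyte stage, with 1 point per stage and no error, since each stage has 1 library. The cathepsin sum is highest in stage IV at 7814 FPKM; the V0 sum is 192 FPKM in stage IV, against 459 FPKM in stage I, and the V1 sum is 292.5 FPKM in stage IV, against 399.5 FPKM in stage I, a direction that turns with median-of-ratios scaling.

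Between stages IV and I, 7 of the 36 genes were called higher and 15 lower in stage IV, where the shares of all loci were 19.1% higher and 44.4% lower. The median difference of the 36 was -0.70, close to the -0.75 of all loci, and turned to 0.08 with median-of-ratios scaling, which gave 13 higher and 10 lower (31% and 32% of all loci with that scaling). Set against stage III, 5 were higher in stage IV and 22 lower (16.4% and 46% of all loci), or 7 and 14 with the scaling (30% and 32.2% of all loci). By group, 5 of 13 cathepsins were higher in stage IV and 4 were lower, again against stage I (8 and 3 with the scaling), against 1 and 8 of 17 pump subunits (4 and 5 with the scaling). The authors' bounds of stages IV and I did not overlap for 33 of the 36 genes, among them the 22 called. How often this held among all loci was not counted, so it cannot be read as a trait of these genes. Stage III was the highest of the 4 libraries for 25 of the 36 genes (26.5% of all loci) and stage IV for 7 (27% of all loci), against 4 in stage II (30.5%) and 0 in stage I (16%). After the scaling these were 19 for stage III, beside 23.2% of all loci, and 14 for stage IV. The scaled share of all loci highest in stage IV was not computed, so the 14 has no background to be read against.

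**Figure D2:**
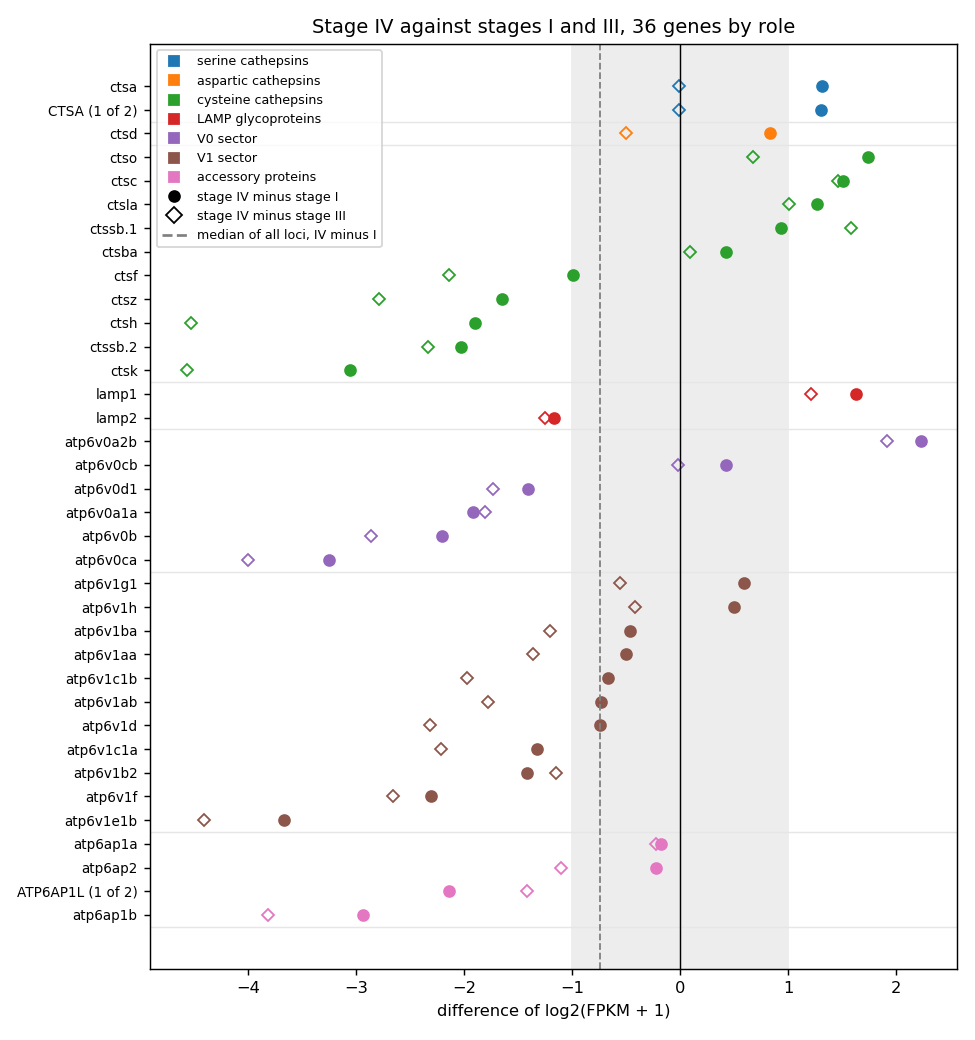
Difference of log2(FPKM + 1) for each of the 36 genes, in rows coloured by role, with stage IV minus stage I as filled circles and stage IV minus stage III as open diamonds; the dashed line marks the median of all loci for stage IV minus stage I, at -0.75. The genes run between -3.67 for atp6v1e1b and 2.23 for atp6v0a2b against stage I, with cathepsins on both sides of 0.

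The 3 most abundant cathepsins were cysteine proteases, and with lamp2 they had the highest mean FPKM of the 48 genes. ctsba, a copy of cathepsin B (chr17:32828689-32837272, danRer7), had 2097 (2035 to 2159), 1695 (1645 to 1745), 2632 (2560 to 2704) and 2809.95 (2733 to 2887) FPKM in stages I to IV. It ranked 31st, 22nd, 17th and 12th among all loci. Its difference for stage IV against stage I was 0.42, short of the call, and 1.29 with the scaling. The locus overlaps CGREF1 in the files, and no source used here says whether strand was used in counting.

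Cathepsin L, an endopeptidase, was represented by ctsla (chr5:46423373-46429502), which had 770.0, 622, 919.5 and 1851 FPKM in stages I to IV. Stage IV was 2.40 times stage I, with bounds of 1793 to 1910 FPKM in stage IV and 744 to 796 FPKM in stage I, and the difference was 1.26 (2.13 with the scaling). The step was in stage IV itself, with a difference of 1.01 against stage III. ctsla ranked 163rd, 153rd, 129th and 28th among all loci.

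A copy of cathepsin S, ctssb.1 (chr16:31769424-31773725), was also highest in stage IV, after lower middle stages. It had 1134 (1083 to 1184), 708 (675 to 741), 722 (688 to 755) and 2163 (2070 to 2256) FPKM in stages I to IV. Its difference was 1.58 for stage IV against stage III and 0.93 for stage IV against stage I, just under the call, but 1.80 with the scaling and so past it. Cathepsin S is known in mammals from antigen-presenting cells, and the leukocyte markers summed to 38.5 FPKM in stage IV, against 151 in stage I and 196 in stage III, with il1b giving 31.0 of the 38.5 and mpeg1 at 0 in stage IV. The part of leukocytes in the ctssb.1 level was not tested.

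The 2 loci on either side of ctssb.1 on chromosome 16 were both lowest in stage IV. ctsk, cathepsin K (chr16:31753228-31762840), known in mammals as the collagen-degrading protease of osteoclasts, had 16, 11, 47.4 and 1.04 FPKM in stages I to IV. ctssb.2, another cathepsin S copy (chr16:31774764-31780268), had 9.81, 6.99, 12.3 and 1.64 FPKM. In stage IV both were thus below 2 FPKM beside 2163 FPKM of ctssb.1, and their differences against stage I were -3.06 and -2.03. ctssb.2 overlaps onecutl and si:dkey-30o16.8, and reads that near-identical copies share could be split between ctssb.1 and ctssb.2.

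Stage IV was also the highest stage for 2 less abundant cathepsins. ctsc, cathepsin C or dipeptidyl peptidase I (chr15:42362040-42383557), which in mammals activates granule serine proteases, had 91.4, 76.0, 94.1 and 262 FPKM in stages I to IV. Its stage IV level (255 to 268) was 2.86 times that of stage I (87.7 to 95.2), with a difference of 1.51 (2.37 with the scaling). ctso, cathepsin O (chr14:37988018-37998698), had 3.91, 8.41, 9.25 and 15.4 FPKM, each stage above the one before, with a difference of 1.74 for stage IV (12.8 to 18.0) against stage I (2.58 to 5.23), or 2.54 with the scaling.

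Cathepsin A is a serine carboxypeptidase that also shields neuraminidase and beta-galactosidase in the lysosome, and its copies had about the same FPKM in stages IV and III. CTSA (1 of 2) (chr6:55571400-55575918) had 127, 152, 317 and 314 FPKM in stages I to IV. ctsa (chr6:55292154-55305332) had 55.3, 76.8, 139.9 and 139 FPKM. Their differences for stage IV against stage I were 1.30 and 1.31 (2.16 and 2.17 with the scaling), and against stage III both were -0.01, or 0.90 with the scaling. The share of CTSA (1 of 2) in the pair stayed between 66.4% and 69.6%. Reads that the 2 entries share could be split between them, which was not checked, so they may not be separate measurements.

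ctsd, cathepsin D (chr18:15792763-15805249), the aspartic endopeptidase that opens vitellogenin cleavage in chicken and frog, had its highest FPKM in stage III (in stage IV with the scaling). It had 127 (119 to 134), 141 (132 to 149), 321 (305 to 337) and 227 (215 to 239) FPKM across stages I to IV. The difference was 1.19 for stage III against stage II, and 0.83 for stage IV against stage I, or 1.69 with the scaling.

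Another 5 cathepsins were highest in stage III and lowest in stage IV: ctsz, ctsh, ctsf, ctsk and ctssb.2. ctsz, cathepsin Z, a carboxypeptidase (chr6:49723038-49733028), had 86.4, 101, 192 and 26.9 FPKM in stages I to IV. ctsh, cathepsin H, an aminopeptidase (chr18:26208613-26215014), had 3.67, 5.09, 27.8 and 0.249 FPKM, and its lower bound in stage IV was 0. ctsf, cathepsin F (chr14:7141307-7164956), had 5.09, 4.66, 12.4 and 2.05 FPKM. For stage IV against stage III the differences of ctsz, ctsh, ctsf and ctsk were -2.79, -4.53, -2.14 and -4.57. These also held with the scaling (-1.90, -4.15, -1.43 and -3.96).

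**Figure D3:**
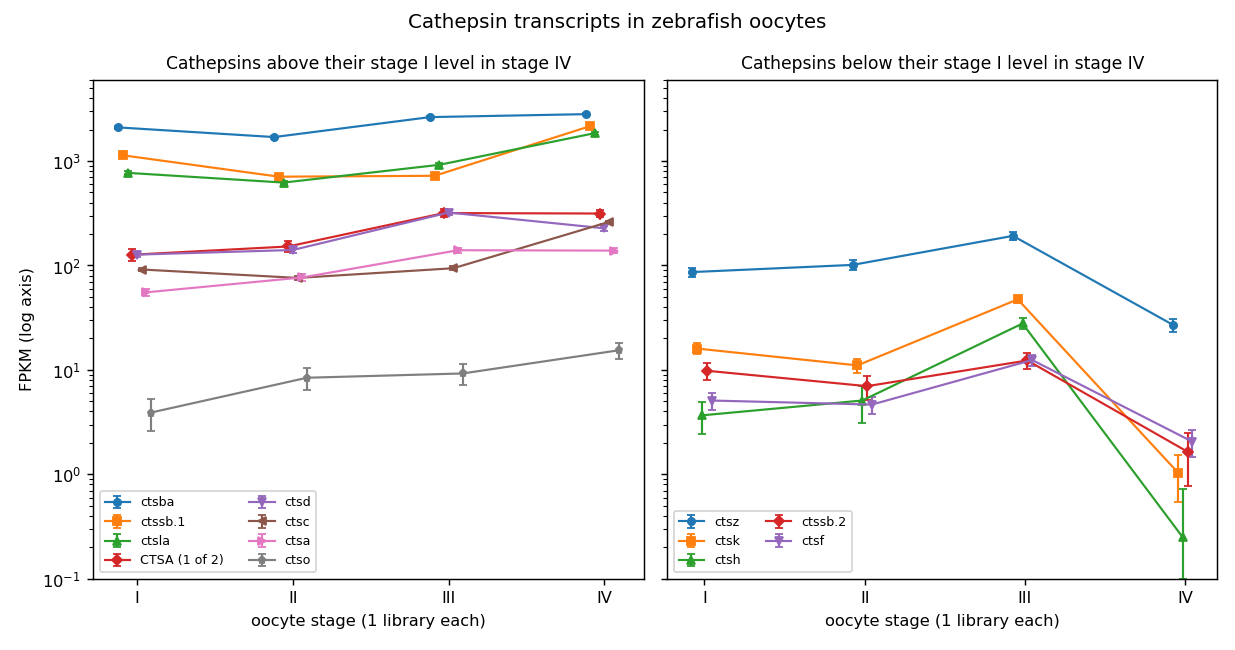
FPKM (log axis) of the cathepsins in the library of each oocyte stage, in separate panels, with bars for the authors' bounds. ctsba, ctsla and ctssb.1 end at 1851 FPKM or more in stage IV, while ctsk, ctsh, ctssb.2 and ctsf end at 2.05 FPKM or less.

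Between stages III and II, 5 of 13 cathepsins were higher (CTSA (1 of 2), ctsd, ctsf, ctsh and ctsk) and 0 lower, and all 13 differences were above 0, with a median of 0.86 (6 higher and 0 lower with the scaling). Over the 36 genes, 5 were higher and 2 lower in stage III (ATP6AP1L (1 of 2) and atp6v1b2), or 8 and 1 with the scaling. Among all loci 8.67% were higher and 7.5% lower in this step, with a median of -0.10 (9.43% and 4.98% with the scaling). The summed markers of other cells were also higher in the stage III library than in stage II for each of the 5 lists. Each of the 5 sums was also lower in stage II than in stage I. Of the 11 follicle cell genes 7 were higher and 4 lower in stage III (9 and 2 with the scaling), counting differences of any size. Far apart among them, hsd3b1, which makes progesterone, and inha had 125 and 84.5 FPKM in stage III, against 12.6 FPKM each in stage II, while gsdf had 8.66 FPKM in stage III, against 32.4 FPKM in stage II, and cyp17a1 had 55.4 FPKM in stage III, against 55.9 FPKM in stage II. Stroma and muscle markers summed to 269 FPKM in stage III, against 80.3 FPKM in stage II and 266 FPKM in stage I. Of the 269 FPKM, tagln gave 113 and acta2 81.1, and of the 7 genes 5 were higher and 2 lower in stage III than in stage II. In stage IV, hsd3b1 was at 0.41 FPKM and inha at 0.30 FPKM. The part of such cells in the cathepsin levels was not tested.

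Most pump subunits were highest in stage III, 14 of 17, beside 26.5% of all loci (11 of 17 with the scaling, beside 23.2%). Against stage III, 13 of the 17 were lower in stage IV and 1 was higher, beside 46% and 16.4% of all loci. With the scaling these were 7 and 1, beside 32.2% and 30% of all loci. The summed markers of other cells were lower in stage IV as well, at 207.5 FPKM for follicle cells, against 573 FPKM in stage III. Of the 207.5 FPKM, cyp11a1 gave 170 and cyp17a1 33.8. The part of such cells in the pump levels was not tested.

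In the V0 sector, 1 of 6 subunit genes was higher in stage IV and 4 were lower, set against stage I, beside 19.1% and 44.4% of all loci. With the scaling these were 2 and 3, beside 31% and 32% of all loci. atp6v0ca (chr3:15664661-15675444) encodes the proteolipid of the rotating proton ring and was the most abundant pump gene in stages I to III. It had 273 (259 to 287), 274 (260 to 288), 462 (441 to 483) and 27.8 (24.4 to 31.2) FPKM in stages I to IV, a difference of -3.25 for stage IV against stage I. atp6v0b (chr2:33399074-33405089), a second proteolipid of the ring, had 56.6, 79.3, 89.7 and 11.5 FPKM, with a difference of -2.21. atp6v0d1, which joins the ring to the rotor, had 66.7, 71.4, 83.9 and 24.5 FPKM, with a difference of -1.41. All 3 were lower with the scaling too (-2.40, -1.39 and -0.57), the last short of the call. atp6v0ca overlaps si:dkey-81l17.7.

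Subunit a of V0 forms the channels through which protons reach the ring, and its isoforms direct the pump to different membranes in mammals. Here 1 isoform gene was higher and another lower in stage IV. atp6v0a2b (chr5:26212797-26236804) had 22.9 (21.0 to 24.8), 43.4 (39.2 to 47.6), 28.6 (24.8 to 32.4) and 111 (105 to 117) FPKM in stages I to IV. atp6v0a1a (chr3:16542207-16593106) had 32.8 (30.8 to 34.7), 43.0 (40.8 to 45.3), 30.2 (28.2 to 32.1) and 7.93 (6.93 to 8.93) FPKM. atp6v0a2b thus made up 93.3% of the summed FPKM of the atp6v0a genes in stage IV, against 40.3% in stage I, 49.5% in stage II and 48.0% in stage III. The bounds of its stage IV value lay above those of every other stage, and the stage IV level was 4.85 times that of stage I. Its difference of 2.23 was the highest among the 36 genes, while that of atp6v0a1a was -1.92, and with the scaling these were 3.08 and -1.12. The summed level of the atp6v0a genes was 119 FPKM in stage IV, against 56.7 FPKM in stage I. TCIRG1 (2 of 2), outside the name rule and not counted in these sums, had 5.81, 5.05, 5.52 and 2.25 FPKM in stages I to IV.

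**Figure D4:**
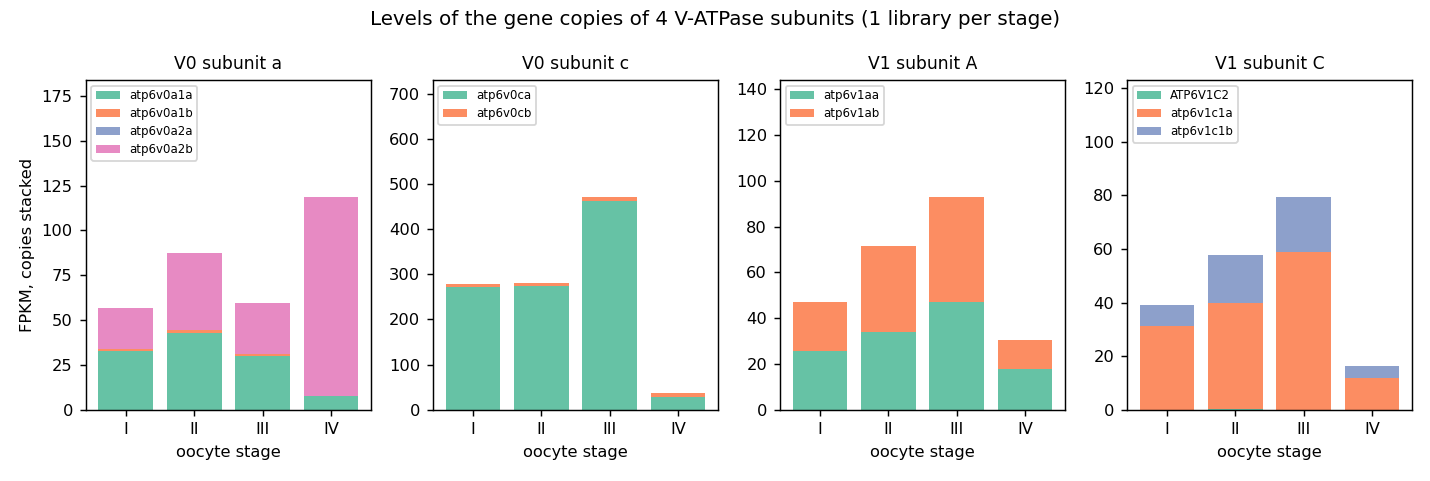
FPKM of the gene copies of 4 V-ATPase subunits, stacked, in the library of each oocyte stage (linear axis starting at 0, 1 library per stage). In stage IV atp6v0a2b makes up 93.3% of the FPKM of the atp6v0a genes, against 40.3% in stage I, while the c subunit, mostly atp6v0ca, has 36.9 FPKM in stage IV, against 279 FPKM in stage I.

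In the other duplicated subunits the proportions of the copies moved less. atp6v1aa made up 58.4% of the catalytic subunit A in stage IV, against 54.1% in stage I, 47.5% in stage II and 50.7% in stage III. atp6v1ba made up between 86.0% and 96.6% of the nucleotide-binding subunit B in the 4 libraries. In subunit C, which governs how V1 and V0 join, atp6v1c1a made up between 68.7% and 80.0%. For the ring proteolipid, atp6v0ca made up 75.4% in stage IV, against 97.7% in stage I; atp6v0cb itself had 6.52, 7.13, 9.24 and 9.08 FPKM across stages I to IV, with overlapping bounds for stages IV and I and a difference of 0.42 (1.21 with the scaling).

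The V1 subunits differed most from one another in stage IV. Adding the copies of each subunit, the most abundant V1 subunit had 43.5 times the FPKM of the least abundant in stage IV, against 4.70 times in stage I, 4.01 in stage II and 3.37 in stage III. For V0 this ratio was 4.94, 3.94, 7.91 and 10.35 in stages I to IV. The 43.5 rests on 1 low subunit at 2.705 FPKM in stage IV, where the next lowest, subunit D, had 9.52 FPKM. The lowest in stage IV was subunit E of the peripheral stalks. Its main gene atp6v1e1b (chr4:5113375-5120584) had 42.0 (38.0 to 46.1), 43.0 (38.8 to 47.1), 71.0 (65.4 to 76.6) and 2.39 (1.5 to 3.27) FPKM in stages I to IV. Its difference of -3.67 for stage IV against stage I was the lowest among the 36 genes, and -2.98 with the scaling. The highest was subunit G, the partner of E in the same stalks: atp6v1g1 (chr5:58762437-58767881) had 78.0, 101, 174 and 118 FPKM. Its difference for stage IV against stage I was 0.59 (1.45 with the scaling).

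The remaining V1 genes that averaged 1 FPKM or more lay between these in their differences for stage IV against stage I, though not all in FPKM. atp6v1b2 had 4.90, 9.39, 3.91 and 1.21 FPKM across stages I to IV, with a difference of -1.42 (-0.86 with the scaling). atp6v1f, of the rotor (chr4:18983678-18997652), had 77.4, 70.1, 99.2 and 14.8 FPKM across stages I to IV, with a difference of -2.31 for stage IV against stage I (-1.48 with the scaling). atp6v1d, also of the rotor, had 16.6, 25.3, 51.4 and 9.52 FPKM. atp6v1h, the regulatory subunit that stops free V1 from using ATP, had 46.2, 45.7, 88.5 and 65.8 FPKM and a difference of 0.50 for stage IV against stage I, or 1.36 with the scaling, past the call. The A and B subunit genes atp6v1aa, atp6v1ab and atp6v1ba had differences of -0.50, -0.74 and -0.47, none past the call, and these turned to 0.32, 0.08 and 0.38 with the scaling. atp6v1c1b (chr19:34323374-34342226) had 7.74, 17.9, 20.6 and 4.49 FPKM and was 1 of 2 genes higher in stage II, with a difference of 1.11 against stage I. The other was ATP6AP1L (1 of 2), and 0 were lower, where 2.67% of all loci were higher and 3.15% lower; neither passed with the scaling. In the V1 sector 5 genes overlap other loci: atp6v1e1b overlaps cecr1b, atp6v1f overlaps LAMTOR4 and BX890616.1, atp6v1aa overlaps si:ch211-137i24.13, atp6v1ab overlaps zgc:92218, and atp6v1d overlaps si:ch211-105d18.6 and si:ch211-105d18.7.

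**Figure D5:**
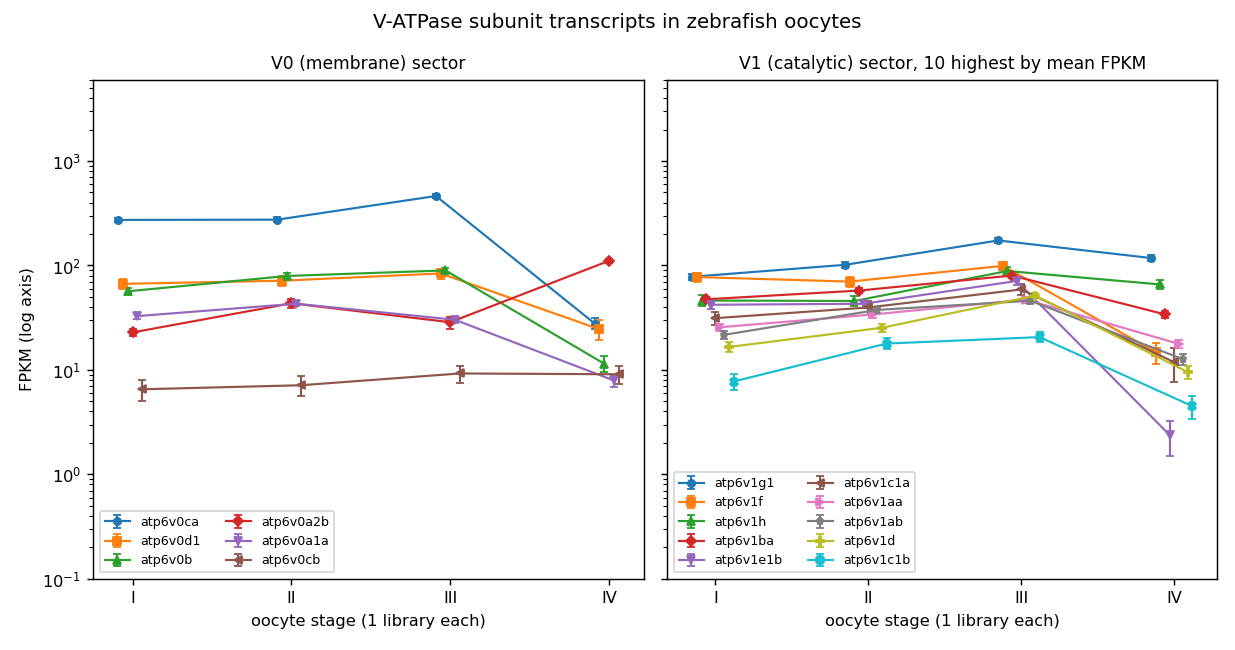
FPKM (log axis) of the V-ATPase subunit genes that averaged 1 FPKM or more, leaving out atp6v1b2, in the library of each oocyte stage, by sector, with bars for the authors' bounds. atp6v0a2b is at 111 FPKM in stage IV, above its other stages, while atp6v0ca is at 27.8 FPKM in stage IV, against 462 FPKM in stage III, and atp6v1e1b at 2.39 FPKM in stage IV, against 71.0 FPKM in stage III.

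Among the accessory proteins, atp6ap1b (chr23:26366806-26381517), a copy of the Ac45 protein that helps assemble the V0 sector, had 24.0 (21.5 to 26.5), 33.4 (30.4 to 36.5), 45.0 (41.4 to 48.6) and 2.26 (1.48 to 3.04) FPKM in stages I to IV. Its difference for stage IV against stage I was -2.94, and -2.26 with the scaling. atp6ap2, the prorenin receptor, which is also needed for V0 assembly, had 52.5, 53.9, 97.8 and 44.8 FPKM, and its bounds in stages IV and I overlapped. The related ATP6AP1L (1 of 2) (chr23:19847124-19872364) was highest in stage II, with 4.34, 9.89, 2.23 and 0.206 FPKM across stages I to IV. The difference was 1.03 for stage II against stage I and -1.75 for stage III against stage II. atp6ap1a stayed between 1.47 and 2.52 FPKM.

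The abundant LAMP genes differed in opposite directions in stage IV. lamp1 (chr9:35351603-35361179) had 68.0 (64.2 to 71.7), 106 (101 to 111), 90.9 (86.3 to 95.4) and 212 (205 to 219) FPKM in stages I to IV, a difference of 1.63 for stage IV against stage I. lamp2 (chr14:34448790-34456576), a receptor for chaperone-mediated autophagy in mammals, had 1265 (1219 to 1312), 1102 (1060 to 1144), 1346 (1297 to 1394) and 563 (539 to 587) FPKM, a difference of -1.17. lamp2 made up 72.7% of LAMP FPKM in stage IV, against 94.9% in stage I. With the scaling the difference of lamp1 was 2.49 and that of lamp2 -0.30, below the call.

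The other 12 genes averaged below 1 FPKM. ctslb, known as a hatching gland protease of the embryo, and LAMP1 (1 of 2) were listed at 0 in all 4 libraries. ctssa and atp6v0a1b reached 1.48 and 1.22 FPKM at most. ATP6V1C2, ATP6AP1L (2 of 2), atp6v0a2a, atp6v1e1a, ctsbb, ctskl, ctsl.1 and ctsll stayed at or below 0.616 FPKM. The copies ctsba and ctsla thus carried nearly all cathepsin B and L signal, with ctsbb at most 0.105 FPKM and ctsl.1 at most 0.411 FPKM.

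Genes of the same organelle outside the name rule were read for comparison, from a list of 76 matched lysosome and acidification genes of which 63 averaged 1 FPKM or more. Against stage I, 12 of them were higher in stage IV (19.1% of all loci) and 24 lower (44.4% of all loci), with a median of -0.32, beside -0.75 for all loci. With the scaling, 20 were higher and 16 lower, where 31% and 32% of all loci were. The median turned to 0.42, beside -0.10 for all loci. npc2, which carries cholesterol out of the lysosome, had 508, 435, 655 and 2046 FPKM in stages I to IV. A second entry, NPC2 (2 of 2), went the other way in stage IV, with 7.43, 6.28, 30.5 and 0 FPKM. gm2a, the activator of ganglioside breakdown, had 54.5, 72.8, 62.3 and 335 FPKM. hexb, a subunit of hexosaminidase, had 13.8, 12.7, 93.1 and 0.64 FPKM, and the tetraspanin cd63 had 74.8, 38.2, 215 and 2.95 FPKM. In stage III, 16 of the 63 were higher than in stage II and 0 lower, with the scaling too. Among all loci 8.67% and 7.5% were so without the scaling, and 9.43% and 4.98% with it. Stage III was the highest stage for 34 of the 63 (54.0%), beside 26.5% of all loci, or for 30 with the scaling, beside 23.2% of all loci.

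Cystatin genes, serpin genes named serpinb1l and genes for yolk uptake were read in the same way. The cystatin cst3, a secreted inhibitor of cysteine cathepsins, had 31.7, 26.5, 69.4 and 20.7 FPKM in stages I to IV. Its difference of -0.59 for stage IV against stage I was short of the call and turned to 0.24 with the scaling. The serpins were listed by symbol, and whether they inhibit any of the cathepsins described here was not checked. Of them, serpinb1l3 and serpinb1l1 were called lower, with differences of -4.013 and -1.247 for stage IV against stage I, where 44.4% of all loci were lower. With the scaling these were -3.336 and -1.099, still past the call, beside 32% of all loci lower. Across the stages serpinb1l3 averaged 30.5 FPKM and serpinb1l1 1.75 FPKM. CST7, serpinb1l2 and serpinb1l4 averaged below 1 FPKM. The gene vldlr, whose product is the vitellogenin receptor in chicken, had 189, 250.1, 242 and 13.6 FPKM, and dab2, an adaptor of endocytosis, had 295, 453, 392 and 10.9 FPKM. Their differences for stage IV against stage I were -3.70 and -4.63, or -2.87 and -3.81 with the scaling. ctsba, ctsla and ctssb.1 had differences of 0.42, 1.26 and 0.93 in the same libraries. Of the 13 cathepsins that averaged 1 FPKM or more, 8 had differences above 0 and 5 below 0. The 5 were ctsk, ctssb.2, ctsh, ctsz and ctsf, at -3.06, -2.03, -1.90, -1.65 and -0.996.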

How the data were processed

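Gene expression was read from 4 tables, 1 per oocyte stage, that hold FPKM with a lower and an upper bound per locus on danRer7, as the authors deposited them. For the whole series, STAR 2.5.3a, Bowtie2, Trim Galore and Bismark are listed in the submitters' processing notes, with no role. The program behind the FPKM, its annotation and its strand setting are not given in the sources used here. Fragments that would give the authors' bounds by counting alone sum to 6260349, 6606980, 6572489 and 6201816 in stages I to IV. These are lower limits, so the depth is unknown and no counting interval is given.

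Starts were shifted by 1 to be 1-based, since 10 of 13 mitochondrial protein genes had end minus start divisible by 3. The highest locus was kept per symbol. Values were compared as log2(FPKM + 1) with a minimum mean of 1 FPKM and a call at 2-fold, with Python 3.11.15, pandas 2.3.3 and numpy 2.4.6, after a test on simulated data. There was 1 library per stage, so no test was run. Alternatives were pseudocounts of 0.1 and 5 FPKM, a minimum mean of 10 FPKM, no minimum mean, every locus counted, and median-of-ratios scaling.

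The members and lists were chosen with earlier results of these data known. Named genes were the 12 with the highest mean, the 6 highest and 6 lowest for stage IV against stage I, and the 4 with the largest difference in each step; others are named where a role group or a pair of copies needs them. Symbols were matched to gene name tables for 43 of the 48. No sequence is printed.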

Additional observations from a re-analysis of the deposited data

How the results depend on the processing

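No paired analysis was possible because each stage has 1 library, and for the same reason no replicate could be left out. Median-of-ratios scaling made the most difference: for stage IV against stage I it gave 13 genes higher, against 7 without it, and a median of 0.076 in place of -0.70; for stage IV against stage III it gave 14 lower, against 22. All loci moved with it: their medians were -0.10 and -0.09, in place of -0.75 and -0.82. The log2 ratio of summed FPKM in stage IV to stage I became 1.65 for cathepsins (0.79 without), -0.40 for V0 (-1.26), 0.42 for V1 (-0.45), 0.11 for accessory proteins (-0.75) and 0.083 for LAMP genes (-0.78), so the last 3 changed sign. In stage II against stage I, the 2 genes higher became 0 with a pseudocount of 5 FPKM, 1 with a minimum mean of 10 FPKM and 0 with the scaling. In stage III against stage II, the 5 higher became 3 with the minimum mean of 10 FPKM and 8 with the scaling, and the 2 lower became 1 with the pseudocount of 5 FPKM, 0 with the minimum mean of 10 FPKM and 1 with the scaling. Of 42 called differences of named genes, 37 kept their call with the scaling, 36 with the pseudocount of 5 FPKM and 42 with 0.1 FPKM. A pseudocount cannot change a sign, and the scaling shifts a difference by at most 0.92, less than a call needs. No called difference could therefore turn round. Many of these genes were named for their large differences, so the kept calls do not measure how stable the calls are. Without a minimum mean, 46 genes entered, low genes pulled the medians to -0.37 for stage IV against stage I and -0.67 against stage III (all loci -0.28 and -0.30), and the counts were within 1 of those above. Counting every locus could not change the counts, since the added loci are of ctslb and at 0 FPKM in all 4 libraries. With 1 library per stage, precision rests on the authors' bounds alone.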

Other observations

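Genes that sort enzymes to the lysosome also differed in both directions in stage IV. The mannose 6-phosphate receptor m6pr had 37.1, 40.9, 67.4 and 104 FPKM in stages I to IV, and gnptg, a subunit of the enzyme that adds the mannose 6-phosphate tag, had 17.9, 21.1, 37.3 and 49.4 FPKM. Their differences for stage IV against stage I were 1.47 and 1.42 (2.32 and 2.26 with median-of-ratios scaling). By contrast gnptab, of the same enzyme as gnptg, had 6.87, 11.3, 9.75 and 6.32 FPKM. Its difference of -0.10 (0.66 with the scaling) was short of the call. The other receptor, igf2r, had 12, 10.9, 7.85 and 4.22 FPKM, and the sorting receptor sort1a had 17.8, 23.9, 21.5 and 1.02 FPKM, with differences of -1.32 and -3.22 (-0.58 and -2.67 with the scaling). The transcription factor genes known in mammals to drive lysosomal genes were low in every library: tfeb had 0.65, 0.38, 0.90 and 1.08 FPKM, and tfe3a had 5.18, 2.81, 5.86 and 0.74 FPKM. These genes were chosen from the list after their values were seen, and no test was possible.

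Vitellogenin transcripts, which the liver makes, were scarce: vtg1 had 22.6, 0, 3.83 and 2.21 FPKM in stages I to IV.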
